A study of Mus musculus with 95 samples.

Results

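The miR-101 family was followed in small RNA sequencing of mice through 2 of the 1881 features of the deposited count table, MI0000103 (mir-101-1) and MI0000739 (mir-101-2). They were chosen by identity and not by their values, although earlier results of these data were known when the choice was made. The names mir-101-1 and mir-101-2 come from that choice, since the deposited files pair no identifier with a name or a species, and whether the entries are mouse precursors is not known. The libraries came from 32 mice aged 6 months on the C57BL6/J background. The knock-in (KI) mice were heterozygous for zQ175 (z_Q175 and Z_Q175 (neo-) in the labels), a knock-in allele of the mouse huntingtin gene with an expanded CAG repeat that serves as a model of Huntington's disease, and the controls were wild type (WT) littermates. In the line CHDI-81003003 the neomycin resistance (neo) cassette that came with the allele was intact, and in CHDI-81003019 it had been deleted. Striatum and cortex of the left hemisphere and the left lobe of the liver gave 12 groups of 8 libraries, with 4 males and 4 females each, except for 7 in the striatum of neo-deleted KI mice (3 of them male). All 3 tissues of an animal were sequenced in 31 mice and only 2 in the remaining 1, so that there were 95 libraries.

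A miRNA gene is transcribed as a hairpin, from which an arm is cut and loaded into an Argonaute protein. The seed of the mature miRNA, bases 2 to 8, then pairs with target mRNAs and lowers their output. miR-101 is known for repressing EZH2, the histone methyltransferase of the Polycomb complex that deposits the repressive H3K27 methyl mark, and ATXN1, the protein of another CAG-repeat disease, spinocerebellar ataxia type 1, both shown with human genes. Liver is a tissue in which the miRNA has been studied as a tumour suppressor. None of these targets was measured, since only small RNA was counted.

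The sequences of the mouse family are shown because the mature arms of different genes are so alike that reads from one can be assigned to another. They are RefSeq entries of the build GRCm38.p6, written 5′ to 3′ with the seed in capitals. In the list, miR-101a-3p lies at chr4:101346957-101346977 on the minus strand, miR-101b-3p at chr19:29135338-29135356 on the plus strand and miR-101c at chr9:3038680-3038698 on the minus strand.
mmu-miR-101a-3p: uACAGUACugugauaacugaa
mmu-miR-101b-3p: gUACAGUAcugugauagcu
mmu-miR-101c: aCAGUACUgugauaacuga
mmu-miR-101a-5p: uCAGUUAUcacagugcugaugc
mmu-miR-101b-5p: uCGGUUAUcaugguaccgaugcu
The 3p arms of miR-101a and miR-101b share a run of 15 nt, which begins at base 1 of the first and at base 2 of the second. As RefSeq places its ends, miR-101b-3p starts 1 base earlier than miR-101a-3p, so that bases 2 to 8 of the 2 entries are not the same letters. The arm of miR-101c lies wholly within miR-101a-3p, over 19 nt. The letters ACAGUAC stand at bases 2 to 8 only in miR-101a-3p among 1738 mature mouse entries, and anywhere in 4 of them, of which 3 are the miR-101 entries above and the fourth is miR-503-5p. The 5p arms, cut from the other side of the hairpins, begin with different seeds.

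The whole hairpins differ more than their 3p arms do, as the entries show, with the RefSeq 3p arm in capitals.
microRNA 101a: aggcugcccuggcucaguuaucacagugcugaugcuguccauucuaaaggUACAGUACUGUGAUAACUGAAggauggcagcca
microRNA 101b: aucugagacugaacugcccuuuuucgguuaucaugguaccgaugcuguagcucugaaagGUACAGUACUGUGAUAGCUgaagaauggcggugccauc
These hairpins are 83 and 97 nt long, and the RefSeq gene of miR-101c is 75 nt long. Dividing the deposited counts by the deposited FPKM gave lengths of 75 nt for MI0000103 and 79 nt for MI0000739. None of these mouse genes is 79 nt long, and only that of miR-101c is 75 nt long. The shared length does not identify MI0000103 as miR-101c, since 18 of the 1005 reference hairpins are 75 nt long. Neither identifier occurs in the reference tables used here and RefSeq names no mouse gene mir-101-1 or mir-101-2, so the identifiers are used here as labels of 2 count rows, without genomic positions. The mouse sequences show the family in this species and may not be those of the entries. If the entries come from another species, the rows hold the mouse reads that matched them, and their split need not follow the mouse genes.

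The deposited values are estimated counts, and for these 2 features they came as a split of a shared number of reads. Neither row held a whole number in any of the 95 libraries, whereas their sum was whole, within 0.005, in all 95. No other feature gave a whole sum in all libraries with either row. The sum of both rows (the pair sum) is therefore the quantity that was counted, from 273 to 3681 counts per library with a median of 589, and the single rows depend on how the authors' counting divided it. Levels below are counts per 1000000 of the library's total (CPM), and total counts ran from 74540 to 496035. Each library's name also holds an L number, which the labels do not explain: striatal libraries had L7 or L8, cortical ones L1, L8 or in 1 case L2, and liver libraries L1, L2 or L3. The 26 L8 libraries had a median total of 419439 counts and the other 69 one of 117174. For that reason genotypes were compared inside L numbers, with the L number as a term of the fit. The features carry no gene names, so the tissue labels could not be set against marker genes.

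The miR-101 pair was most abundant in liver, and the second row differed far more between tissues than the first. In WT mice the pair sum was 7258 ± 1659 CPM in liver (SD, n = 16). Striatum had 4559 ± 1644 CPM (n = 16), close to the 4392 ± 1575 CPM of cortex (n = 16). The lowest, median and highest liver libraries had 5168, 6800 and 11552 CPM. The corresponding values were 2598, 4015 and 7277 CPM in striatum, and 2998, 3751 and 7932 CPM in cortex. Liver thus lay above most brain libraries, though the ranges overlapped. The overlap was with brain libraries of L8, a number that no liver library had. WT striatum reached 4395 CPM in L7, and WT cortex 4235 CPM in L1 and 3347 CPM in its 1 library of L2. In bulk tissue, a difference in the number of cells that make a miRNA and one in the amount per cell cannot be told apart.

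In MI0000103, the median WT library had 4793 CPM in liver, with a range of 2852 to 8617. It had 3577 CPM in striatum (range 1772 to 5770) and 3234 CPM in cortex (range 2293 to 7220). The 3 ranges overlapped along most of their length. In MI0000739, the median was 2480 CPM in liver (range 1254 to 3953), 891 CPM in striatum (range 308 to 1889) and 642 CPM in cortex (range 161 to 1066). All 16 liver libraries lay above every cortical one (the ranges of these tissues did not overlap in 65.1% of 209 features), while the lowest liver libraries overlapped the highest striatal ones. The WT striatal libraries had 1166 to 1889 CPM in L8 and at most 1050 CPM in L7. Per length, in FPKM, MI0000739 was below MI0000103 in all 31 striatal and all 32 cortical libraries and in 30 of 32 liver libraries.

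**Figure D1:**
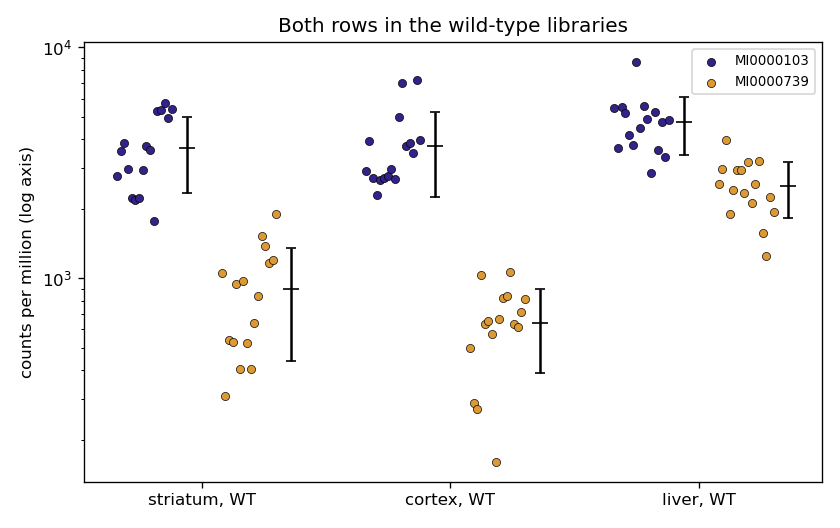
CPM of MI0000103 (blue) and MI0000739 (orange) in the 16 WT libraries of each tissue, on a log axis, with the mean and SD at the right of each set of points. The liver libraries of MI0000739 lie at 1254 to 3953 CPM, above all cortical ones (161 to 1066 CPM), while those of MI0000103 overlap between the 3 tissues.

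The tissues were tested by edgeR's quasi-likelihood test across all features of the WT libraries, with sex, line and L number as terms, at a Benjamini-Hochberg adjusted p under 0.05. Between liver and cortex the fit called 190 of 209 features (90.9%), so that a call was the rule. The pair sum was 2.69-fold higher in liver (log2 difference 1.43, SE 0.13, adjusted p = 1.67e-13). MI0000103 was 2.09-fold higher (log2 1.06, SE 0.18, adjusted p = 5.74e-07) and MI0000739 6.06-fold higher (log2 2.60, SE 0.25, adjusted p = 4.24e-13). Set against a median log2 difference of -1.11 over all features, the rows stood far to the liver side. That median ranged from -0.89 to -1.34 between TMM, DESeq2 size factors and total counts, and the pair sum's difference from 1.22 to 1.68, with the same direction and call under each. Within L1, where both tissues have libraries, the log2 differences were 1.45 for the pair sum, 1.04 for MI0000103 and 2.82 for MI0000739, all called, as were 91% of the 210 features tested.

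Liver and striatum share no L number, so that their difference rests on the cortical libraries that link the numbers. The fit gave log2 differences of 1.12 for the pair sum (SE 0.20, adjusted p = 2.91e-06), 0.77 for MI0000103 (SE 0.27, adjusted p = 0.00789) and 1.71 for MI0000739 (SE 0.38, adjusted p = 7.66e-05). It called 184 of the 209 features (88%), with a median log2 difference of -1.27. With the animal as a block, since the tissues came from the same mice, MI0000103 was no longer called (log2 0.45, adjusted p = 0.184), while the pair sum (0.83, adjusted p = 0.00201) and MI0000739 (1.82, adjusted p = 0.00156) were.

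Between striatum and cortex the fit called MI0000739 and not MI0000103. MI0000739 was 1.85-fold higher in striatum (log2 0.89, SE 0.28, adjusted p = 0.0086), among 90 of 209 features called (43.1%). MI0000103 differed by 0.29 (SE 0.20, 95% interval -0.12 to 0.70, adjusted p = 0.252) and the pair sum by 0.31 (SE 0.15, adjusted p = 0.109). With the animal as a block the calls changed places, since the pair sum was called (log2 0.48, adjusted p = 0.0319) and MI0000739 was not (0.78, adjusted p = 0.102). Within L8, the number that both tissues share, MI0000739 was called at 0.76 (adjusted p = 0.0121; 38.8% of 240 features were), the pair sum differed by 0.13 (adjusted p = 0.591) and MI0000103 by -0.01 (adjusted p = 0.992).

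With the L number in the fit, no genotype difference of the pair or of either row was called in any tissue or line. The neo-intact striatum held the pair sum at 2535, 6182 and 8086 CPM in the lowest, median and highest of 8 KI libraries. The 8 WT libraries had 2607, 3480 and 6160 CPM. The KI median was the higher, but 5 of the 8 KI libraries were L8 and only 1 of the WT libraries was. In L8 the 5 KI libraries had 5602 to 8086 CPM around the single WT library at 6160 CPM, and in L7 the 3 KI libraries had 2535 to 3346 CPM within or below 7 WT libraries at 2607 to 4153 CPM. The fitted KI to WT difference was 0.06 on the log2 scale (SE 0.12, 95% interval -0.19 to 0.32, adjusted p = 0.824), which is negative with total counts in place of TMM (-0.01) and within L7 (-0.14). MI0000103 differed by 0.11 (SE 0.14) and MI0000739 by -0.17 (SE 0.29). Within L7 alone MI0000739 was at -0.83 (edgeR adjusted p = 0.211). The fit of the single rows over all striatal libraries called 29 of 188 features (15.4%), and that within L7 called 13 of 182.

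**Figure D2:**
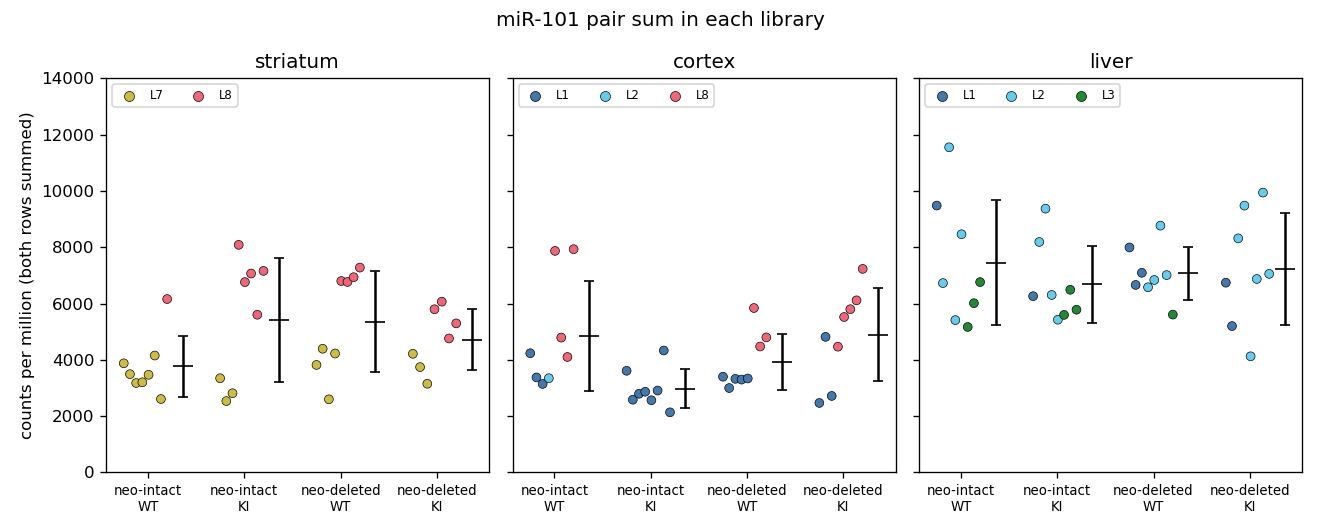
Pair sum in CPM in each library of striatum, cortex and liver, by line and genotype, coloured by L number, with the mean and SD of the group beside the points. Striatal L8 libraries lie at 4759 CPM or above and L7 libraries at 4395 CPM or below, and the groups differ in how many of each they hold.

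In the neo-deleted striatum the pair was lower in KI mice among the L8 libraries and overlapped WT among the L7 libraries. The 4 KI libraries of L8 had 4759, 5295, 5798 and 6067 CPM. The 4 WT libraries of L8 had 6768, 6800, 6936 and 7277 CPM, so that the highest KI library was below the lowest WT library. The ranges of these 4 and 4 libraries also did not overlap in 42 of the 235 features tested (17.9%), 27 of them lower in KI mice, and the separation is not particular to the pair. In L7 the 3 KI libraries had 3150, 3742 and 4214 CPM and the 4 WT libraries 2598, 3819, 4224 and 4395 CPM, and these overlapped. Over all libraries the difference was -0.14 (SE 0.12, 95% interval -0.38 to 0.10, adjusted p = 0.425), with -0.24 for MI0000103 (SE 0.13, adjusted p = 0.218) and 0.17 for MI0000739 (SE 0.26, adjusted p = 0.668), while 29 of 188 features (15.4%) were called. Fitted within L8, the log2 difference was -0.36 for the pair sum (edgeR adjusted p = 0.0342) and -0.36 for MI0000103 (edgeR adjusted p = 0.0361), where 31 of 235 features (13.2%) were called. Within L7 the pair sum differed by 0.06 (adjusted p = 0.916) and MI0000739 by 0.71 (adjusted p = 0.345), the opposite sign to the neo-intact line. The difference between the L numbers was not tested.

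In MI0000103, the same 4 KI libraries of L8 had 3634 to 4914 CPM and the 4 WT libraries 5278 to 5770 CPM. In MI0000739 the ranges overlapped, with 1125 to 1352 CPM in KI and 1166 to 1889 CPM in WT libraries. Over the 10 combinations of tissue, line and L number with at least 2 libraries of each genotype, the mean pair sum was higher in KI mice in 3 and lower in 7. The neo-deleted striatum in L8 was the 1 of the 10 in which its ranges did not overlap. For MI0000739 the ratio of the KI to the WT mean ran from 0.522 to 1.55 over the 10, with both extremes in striatal L7 libraries, of the neo-intact and the neo-deleted line, and no ranges were apart.

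In cortex all 8 neo-intact KI libraries were L1, with a pair sum of 2135 to 4331 CPM and a median of 2830. The 3 WT libraries of L1 had 3144, 3376 and 4235 CPM. Of the KI libraries 6 lay below all 3 WT libraries and 1 above them. The WT group's other libraries were 1 of L2 at 3347 CPM and 4 of L8 at 4102, 4791, 7871 and 7932 CPM. The fitted difference was -0.21 (SE 0.15, 95% interval -0.51 to 0.10, adjusted p = 0.527), against -0.43 (adjusted p = 0.0713) when the L number was left out of the fit. MI0000103 differed by -0.30 (SE 0.18, adjusted p = 0.47) and MI0000739 by 0.24 (SE 0.31, adjusted p = 0.777). None of the 186 features was called (0%) by edgeR or by DESeq2, and 15 had an unadjusted p under 0.05.

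The neo-deleted cortex held 2469, 2717 and 4816 CPM in the 3 KI libraries of L1 and 2998 to 3401 CPM in 5 WT libraries. In L8 the 5 KI libraries had 4467 to 7232 CPM and the 3 WT libraries 4474, 4797 and 5842 CPM. KI libraries lay on both sides of the WT libraries in each number. The difference was 0.09 (SE 0.13, 95% interval -0.18 to 0.36, adjusted p = 0.865), and it turned to -0.01 without 1 KI library, male replicate 2. Here too edgeR and DESeq2 called 0% of 186 features, with 9 at an unadjusted p under 0.05.

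In liver the neo-intact line had a pair sum of 6678 ± 1385 CPM with and 7448 ± 2217 CPM without the knock-in allele (SD, n = 8 each), and the neo-deleted line one of 7217 ± 1991 against 7069 ± 952 CPM (n = 8 each). The KI ranges of 5425 to 9371 and 4126 to 9942 CPM overlapped those of WT, 5168 to 11552 and 5608 to 8768 CPM. The fitted differences were -0.12 (SE 0.16, 95% interval -0.45 to 0.22, adjusted p = 0.864) with the cassette and -0.06 (SE 0.17, 95% interval -0.40 to 0.28, adjusted p = 0.998) without it. In the neo-deleted line the rows went opposite ways, with -0.32 for MI0000103 (SE 0.20, adjusted p = 0.988) and 0.34 for MI0000739 (SE 0.17, adjusted p = 0.988). In the neo-intact line they differed by -0.10 and -0.09. Of 131 features, edgeR and DESeq2 called 0% in either line, and 13 and 4 had an unadjusted p under 0.05.

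**Figure D3:**
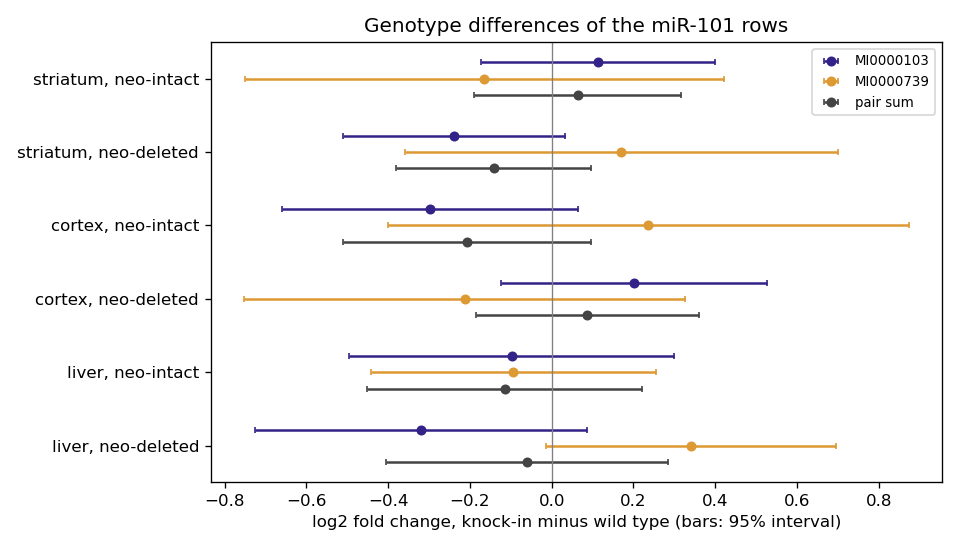
Log2 fold changes of KI against WT for MI0000103, MI0000739 and the pair sum in each tissue and line, from the fit with the L number, with 95% intervals as bars. All 18 intervals include 0, and those of the pair sum lie between -0.51 and 0.36.

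Differences between the lines were not called either. The pair sum of neo-deleted WT mice differed from that of neo-intact WT mice by 0.10 (SE 0.12) in striatum, -0.16 (SE 0.14) in cortex and -0.12 (SE 0.17) in liver on the log2 scale, with adjusted p from 0.807 to 0.926. edgeR called 0% of features in each of these, with 8, 14 and 9 at an unadjusted p under 0.05, and DESeq2 called 0, 0 and 1. The KI effect in the neo-deleted minus that in the neo-intact line was -0.20 (SE 0.17) for the pair sum in striatum, 0.30 (SE 0.21) in cortex and 0.06 (SE 0.23) in liver. For MI0000103 it was -0.35 (SE 0.19, edgeR adjusted p = 0.912) in striatum and 0.50 (SE 0.25, edgeR adjusted p = 0.476) in cortex. These difference tests called 0.532% of the features in striatum, 1 of 188, and 0% in cortex and liver, where 13 and 10 had an unadjusted p under 0.05 and DESeq2 called none.

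Differences between L numbers were called for the pair and for both rows in the brain tissues. In striatum L8 libraries had a pair sum of 4759 to 8086 CPM (n = 14) and L7 libraries 2535 to 4395 CPM (n = 17), with no overlap, as in 38.3% of the 188 features. The fit gave an L8 to L7 difference of 0.64 for the pair sum (SE 0.09, adjusted p = 3.74e-07), 0.59 for MI0000103 and 0.87 for MI0000739, and 84.6% of the 188 features were called in that contrast. In cortex the 12 L8 libraries had 4102 to 7932 CPM and the 19 L1 libraries 2135 to 4816 CPM, which overlapped. The difference was 0.44 for the pair sum (SE 0.11, adjusted p = 0.0012), 0.48 for MI0000103 (adjusted p = 0.00245) and 0.55 for MI0000739 (adjusted p = 0.0369), among 70.4% of 186 features called. L8 libraries were also the deepest, and the part of depth in these differences was not tested.

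The share of the pair that the counting assigned to MI0000103 was compared too, since it does not depend on library size. It reflects which entry the reads matched only as far as the authors' counting resolved the rows. Counting alone leaves an uncertainty that depends on the counts in the pair. At the lowest share of all, 44.1% in male replicate 2 of neo-deleted KI liver with 834 counts in the pair, the 95% Wilson interval was 40.8 to 47.5%. It was wider, 62.4 to 73.4%, in the library with the fewest counts in the pair, 273 in male replicate 4 of neo-intact WT striatum. With the most counts, 3681 in female replicate 3 of neo-intact KI striatum (L8), it was narrower, 75.2 to 77.9%. Such intervals cover counting error only and treat the estimates as reads. In WT mice the share was 84.7% ± 6.50 in cortex, 80.3% ± 7.55 in striatum and 65.2% ± 7.58 in liver (SD, n = 16 each). An exact two-sided permutation test within the shared L numbers could use 12 liver and 9 cortical libraries. The share was lower in liver than in cortex, at a difference of -19.9 percentage points (exact permutation p = 0.000449, adjusted over 2 tests p = 0.000898). That test took libraries as separate, although the same 16 mice gave the libraries of each tissue. Paired within the 16 WT mice, the liver share was lower in all 16, by a mean difference of -19.5 points (exact sign-flip permutation adjusted p = 6.1e-05), but only 2 of these mice had both libraries under the same L number. In striatum it differed from cortex by -6.44 points in L8, with 5 striatal and 7 cortical libraries (exact permutation p = 0.0253, adjusted p = 0.0253). That call was lost without either of 2 neo-deleted WT striatal libraries, male replicate 4 (-5.21, adjusted p = 0.0606) and female replicate 3 (-6.10, adjusted p = 0.0545). Paired within mice it was also lost, at -4.46 points with the striatal share lower in 9 of 16 (exact sign-flip permutation adjusted p = 0.121), though only 1 mouse had both libraries under the same L number.

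In the neo-deleted line, KI liver assigned less of the pair to MI0000103 than WT liver did. In L2 the 6 KI libraries had shares of 44.1, 46.4, 52.2, 53.97, 54.7 and 59.1%. The 4 WT libraries of L2 had 63.3, 63.7, 65.7 and 69.8%, all above the KI libraries. Shares were set side by side in 10 combinations of tissue, line and L number with at least 2 libraries of each genotype. Only in this 1 did their ranges not overlap, and the mean share was higher in KI mice in 4 and lower in 6. How often shares of other features separate was not examined. In L1 the 2 KI libraries had 56.5 and 59.6% and the 3 WT libraries 55.2, 68.1 and 73.3%, which overlapped, and the remaining WT library, the only one of L3, had 59.99%. The difference was -11.8 points within L numbers (exact two-sided permutation p = 0.00381, adjusted over the 6 comparisons of genotype p = 0.0229). It was -13.9 points in L2 and -7.50 points in L1. The call was lost when any of 3 WT libraries was left out, male replicates 1 (-11.5, adjusted p = 0.05), 2 (-11.9, adjusted p = 0.05) and 3 (-10.6, adjusted p = 0.0571).

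**Figure D4:**
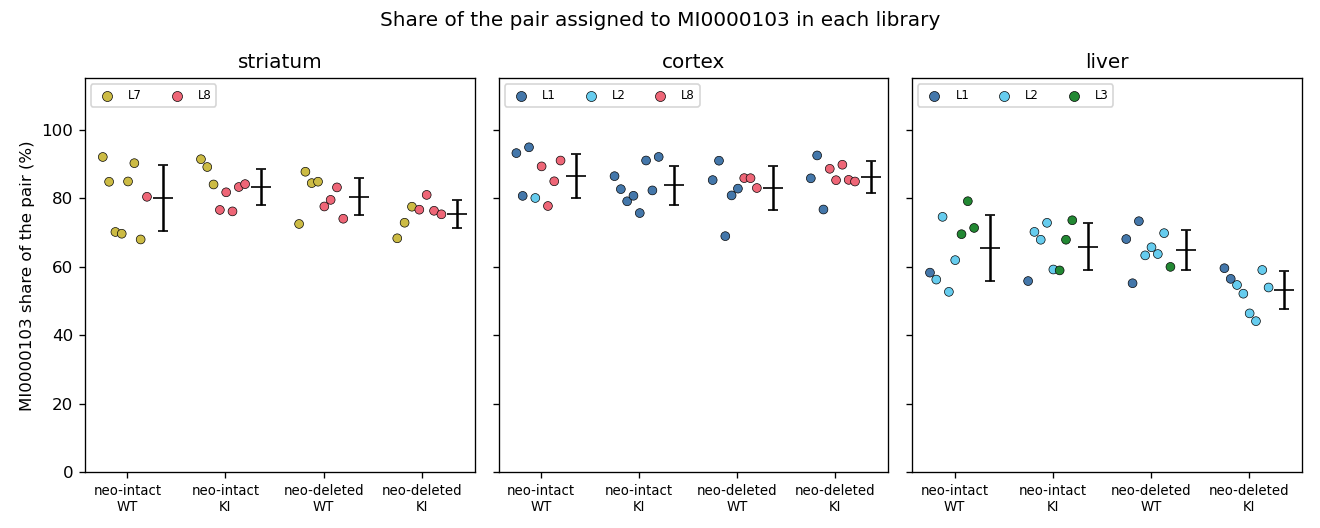
Share of the pair assigned to MI0000103, in percent, in each library by tissue, line and genotype, coloured by L number, with the group's mean and SD. The liver libraries of neo-deleted KI mice lie at 44.1 to 59.6%, below those of cortex and most of the other liver libraries.

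The other 5 comparisons of the share by genotype were not called. In neo-intact liver it differed by 0.33 points (exact permutation adjusted p = 0.931), with 65.8% ± 6.84 in KI and 65.5% ± 9.51 in WT mice (SD, n = 8 each). That value joined differences of opposite sign. They were 6.16 points in L2 (4 KI and 4 WT libraries), -6.52 in L3 (3 and 3) and -2.46 in L1 (1 and 1). In striatum the share differed by 5.87 points with the cassette intact and by -5.05 points without it (exact permutation adjusted p = 0.423 and 0.235), and in cortex by -5.83 and 2.56 points (adjusted p = 0.412 and 0.498). The neo-intact cortical value rests on 8 KI and 3 WT libraries, all of L1. With the L number ignored it was -2.73 points over 8 and 8 libraries. The genotype difference in liver was lower in the neo-deleted than in the neo-intact line, by -12.1 points (exact permutation of the lines within genotype and L number, p = 0.0151, adjusted over 3 tissues p = 0.0452). That call held in 10 of the 32 tests that left out a library and was lost with the L number ignored (-11.9, permutation adjusted p = 0.117). The corresponding differences were -10.9 points in striatum (adjusted p = 0.0759) and 8.39 in cortex (adjusted p = 0.153).

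Within a tissue and L number, the 2 rows did not move together from library to library. Across the 95 libraries, after the mean of each tissue and L number was removed from log2(CPM + 1), the rows had a Pearson correlation of -0.08 with each other, as a description over libraries that share their depth and scaling. Their values are also parts of 1 divided sum. Among the 106 features kept in all tissues, MI0000440 was the most like MI0000103 (r = 0.63), followed by MI0000471 (r = 0.60). MI0000471 was also the most like MI0000739, with r = 0.33.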

How the data were processed

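Small RNA was counted in 95 libraries. The authors deposited estimated counts for 1881 features, not scaled for depth, and FPKM values, which were used only to derive feature lengths and to compare levels per length. The submitters' processing notes name CASAVA 1.8.2 and the build mm10. The aligner, counting method and feature reference are not given in the sources used here. Members and comparisons were chosen with earlier results of these data known, and all identifiers named follow the rule of both members, their sum and their most similar features.

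Counts were rounded and tested in R 4.3.3 with edgeR 4.0.16 (quasi-likelihood, TMM scaling, filterByExpr with a minimum count of 10 and a minimum total of 15). Each tissue was fitted with its 4 groups, sex and L number. The pair sum replaced both rows in a second fit. P-values were adjusted over all features tested. CPM levels are not TMM-scaled, unlike fitted differences. Shares were tested in Python 3.11.15 with scipy 1.17.1 by exact permutation within L numbers. The test of the share between lines, its pairing by animal and leaving out libraries for shares were added after seeing the data. Alternatives were DESeq2 1.42.0, other scalings and filters, no L number or sex term, blocks and left-out libraries. Tissues of an animal share its identifier in the labels, and the animal was a block only in alternative fits and in a paired test of the shares. Between genotypes a shared replicate number did not mean a shared animal: of 47 such pairs, 16 had correlated deviations over 0.1 (median -0.02), so the number was not used to pair. Reads carried no molecular identifiers. The Wilson intervals of shares cover counting error only, whereas the intervals of log2 differences come from the edgeR fit across libraries.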

Additional observations from a re-analysis of the deposited data

Results flagged for a closer look

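Among 48 combinations of group and measure, 3 held a library far from the others of its group by Dixon's criterion, which chance meets in about 1 of 20 groups. In the cortex of neo-deleted WT mice, male replicate 1 (L1) had a MI0000103 share of 68.96%, and the next lowest library had 80.8%. In the liver of neo-intact WT mice, female replicate 4 (L2) had 8617 CPM of MI0000103, and the next highest had 5529 CPM. In the striatum of neo-intact WT mice, male replicate 3 had a pair sum of 6160 CPM, and the next highest had 4153 CPM. It was the only L8 library of that group.

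The genotype difference in the MI0000103 share of liver differed between the lines by -12.1 points (exact permutation p = 0.0151, adjusted p = 0.0452). The KI share was lower in the neo-deleted line. In the neo-intact line it differed from WT by 0.33 points, with 6.16 in L2, -6.52 in L3 and -2.46 in L1. The call between the lines held in only 10 of the 32 tests that left out a library. It was lost with the L number ignored (permutation adjusted p = 0.117), and the test was added after seeing the data.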

How the results depend on the processing

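Of the values recomputed under other settings, 412 kept their direction and side of the threshold, 18 changed sign, 3 gained a call and 5 lost it, with the cause not tested. None of the values that changed sign passed the threshold in either setting. Without the L number, the log2 difference of MI0000739 between KI and WT was 0.34 in neo-intact striatum and -0.16 in neo-intact cortex, its difference between lines was -0.15 in striatum and 0.11 in cortex, and the pair sum in neo-deleted liver was 0.0209. The pair sum in neo-intact striatum was -0.00889 with total counts only and -0.0591 with only the 2 groups compared. Within L7 it was -0.14 in neo-intact and 0.0594 in neo-deleted striatum, and MI0000103 was -0.0261 in neo-intact striatum. Within L8, the neo-deleted striatum gained calls for MI0000103 (-0.36) and the pair sum (-0.36), MI0000739 was -0.27 there and 0.0135 in neo-deleted cortex, and MI0000103 was -0.00543 between striatum and cortex. In liver, MI0000739 was -0.20 within L1 (neo-deleted) and 0.34 within L3 (neo-intact), MI0000103 was 0.0557 within L2 (neo-intact), and the pair sum was 0.0187 within L2 (neo-deleted) and 0.0148 within L3 (neo-intact).

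With the animal as a replicate block, MI0000739 (0.78) lost and the pair sum (0.48) gained its call between striatum and cortex, MI0000103 (0.45) lost its call between liver and striatum, and the share (-4.46 points) lost its call between striatum and cortex. The replicate number as a block changed no other call: the pair sum in striatum was 0.04 with and -0.15 without the cassette. With the L number ignored, the share calls between striatum and cortex (-4.46 points) and between the lines in liver (-11.9 points) were lost.

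With each library left out in turn, log2 differences that changed sign ranged, for MI0000739, from -0.28 to 0.0253 in neo-intact striatum and from -0.18 to 0.0314 in neo-intact liver. They ranged from -0.21 to 0.0263 for MI0000103 in neo-intact liver, and for the pair sum from -0.0118 to 0.15 in neo-deleted cortex and from -0.15 to 0.0289 in neo-deleted liver. The uncalled pair sums that kept their sign also moved by over 1.5 times: from 0.0287 to 0.19 (without KI female replicate 2) in neo-intact and from -0.21 to -0.0591 (without WT male replicate 3) in neo-deleted striatum, from -0.31 to -0.0976 (without WT female replicate 3) in neo-intact cortex, and from -0.19 to -0.0304 (without WT male replicate 2) in neo-intact liver. Share differences ranged from -1.46 to 2.16 points in neo-intact liver, -13.5 to -10.6 in neo-deleted liver, -7.71 to -5.21 between striatum and cortex, and, between lines, -13.9 to -10.3 in liver and -13.3 to -9.33 in striatum.

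Over all features, calls fell from 29 to 10 in neo-deleted striatum without the L number and rose to 47 with DESeq2, and within L7 there were 8, against 13 in the neo-intact line. In neo-intact cortex they rose from 0 to 18 of 186 without the L number, but stayed at 0 of 185 when the pair sum replaced both rows. With no filter, liver had 6, 5 and 9 calls in place of 0 for the neo-intact line, the neo-deleted line and their difference, and 3 between WT lines.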
